A study of Homo sapiens with 4 samples.

Results

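LYL1 and 8 genes near it on the short arm of chromosome 19 (band 19p13) were examined in RNA-seq data from cells treated with GNE-987. The 9 genes were LYL1, NFIX, TRMT1, NACC1, STX10, IER2, CALR, GET3 and DNASE2, out of 58735 genes in the deposited table. They were taken by name, from a stretch of about 12.7 to 13.2 Mb of GRCh38, and all 9 were found by their Ensembl identifiers. The genes were selected on their change in FPKM between treated and control libraries as well as on their place, since LYL1, NACC1, TRMT1 and GET3 (listed in the study as ASNA1) are among the candidate genes that the study selected for lower expression after treatment. The values of the 9 genes in this comparison are therefore given as a description and support nothing as a test. The libraries came from cells labelled NB4, a line of human leukemia cells of the promyelocytic type. There were 2 libraries labelled as control for GNE-987 and 2 libraries from cells that received GNE-987, at 25 nM for 24 h. Whether the control cells received a vehicle is not stated for these libraries. No genotype or other agent is given for either group, and the labels do not say whether the libraries of a group came from separate cultures, so the spread between them may be technical.

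LYL1 is a basic helix-loop-helix transcription factor of blood stem and progenitor cells, first found at a chromosome break in T cell leukemia, and a close relative of TAL1. It binds DNA at E-box sequences together with an E protein such as TCF3 or TCF12, in a complex that holds LMO2, LDB1 and GATA factors. GNE-987 is a degrader: one end binds a target protein, the other a ubiquitin ligase, and the bound protein is then destroyed. Super-enhancers are long stretches of acetylated chromatin near highly transcribed genes. The study placed 6 of the 9 genes (LYL1, TRMT1, NACC1, STX10, IER2 and GET3) on its list of genes with super-enhancers common to AML samples, and added NFIX and DNASE2 on its list for NB4 cells. CALR is on neither list.

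The labelled cell type was checked against marker genes. Of 8 promyelocyte markers, 6 had a control mean under 1 FPKM (fragments per kilobase of exonic length, divided by a number of reads for each library). CTSG and ELANE were listed at 0 in both control libraries and MPO at 0.0246 and 0 FPKM. The summed level of the 8 markers was 9.53 to 10.8 FPKM in control and 29.6 to 32.3 FPKM with GNE-987. All 10 erythroid markers had a control mean above 1 FPKM (EPOR fell to 1.09 and 0.736 FPKM with GNE-987), with sums of 422 to 444 FPKM in control and 676 to 790 FPKM with GNE-987. The 3 T cell markers summed to 15.3 to 16.2 and 20.5 to 21.5 FPKM, nearly all of it CD3D, and the 3 B cell markers to 0.936 to 0.950 and 22.1 to 23.7 FPKM, nearly all of the latter CD79A. The libraries are therefore called the libraries labelled NB4. The part of these marker levels in the results was not tested, and in bulk RNA fewer cells of a type and less RNA per cell cannot be told apart. The whole reads behind the FPKM values came to between 12314866 and 19334669 reads on genes per library, with GNE-987 as the shallower group.

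A gene is said here to have risen or fallen when an unadjusted P value from limma was under 0.05 and the fold change over 2 or under 0.5, the thresholds of the study. For the 9 genes, which were chosen on this contrast, the words only sort the values by these thresholds. Of them, 4 fell (LYL1, NACC1, GET3 and TRMT1), 1 rose (IER2) and 4 did not pass (NFIX, STX10, CALR and DNASE2). Among the 16668 genes tested, 24.9% fell and 33.6% rose. In 6 of the 9 genes both GNE-987 libraries were below both control libraries and in 3 both were above, against 41.6% and 47.5% of all tested genes. The 9 genes had a median log2 fold change of -0.54 and all tested genes one of 0.17. Since the choice of genes used this comparison, nothing is read from these shares.

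**Figure D1:**
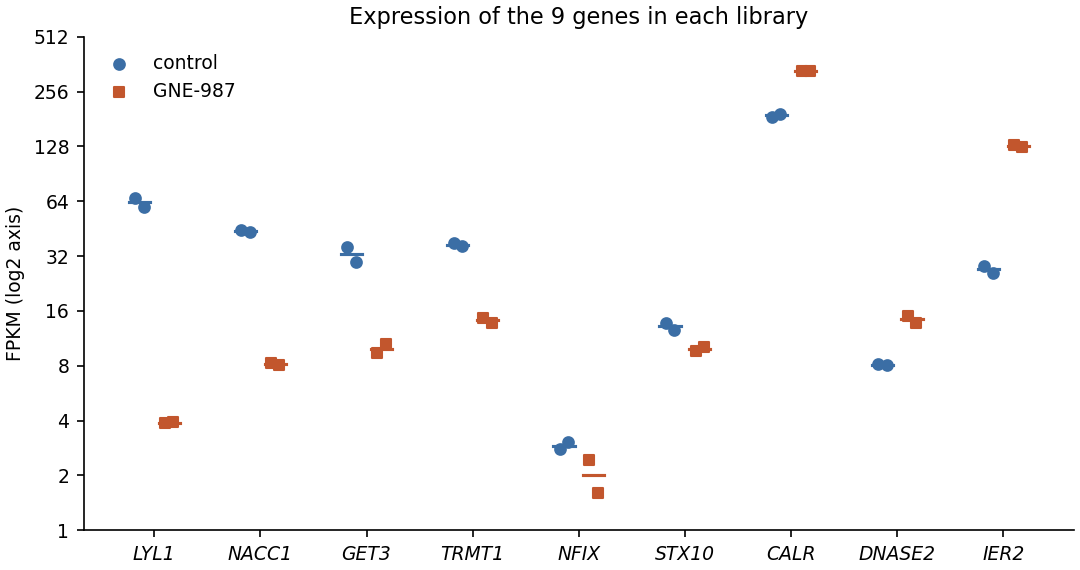
FPKM (log2 axis) of each of the 9 genes in the 2 control libraries (blue circles) and the 2 GNE-987 libraries (red squares), with the group means as short lines. LYL1 moved from 63.1 to 3.9 FPKM and IER2 from 27.1 to 128.3 FPKM by the group means, and in none of the 9 genes do the groups overlap.

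LYL1 (ENSG00000104903) occupies 13099033 to 13103161 of chromosome 19 (GRCh38, minus strand). Distances given below are counted from 13103161, its outermost start, and the 250 bases before the start of its main transcript (chr19:13102859-13103108, minus strand) are shown because LYL1 fell most of the 9 genes. The sequence was taken from RefSeq on GRCh38.p14, and capitals mark the single match to the GATA motif GATAA, which reads TTATC on this strand.
LYL1: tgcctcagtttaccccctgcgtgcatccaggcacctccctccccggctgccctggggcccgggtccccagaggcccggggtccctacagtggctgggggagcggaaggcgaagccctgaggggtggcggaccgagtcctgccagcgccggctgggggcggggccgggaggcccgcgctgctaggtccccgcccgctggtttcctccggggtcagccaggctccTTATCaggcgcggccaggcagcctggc
The match ends 22 bases before the start. No E-box (CANNTG) and no exact match to CCGGAA, a form of the ETS motif, was found on either strand of these 250 bases. Shorter or variant forms of the ETS motif were not searched, so their absence is not claimed.

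In control the FPKM of LYL1 was 66.9 and 59.3, and with GNE-987 it was 3.87 and 3.92. These values rest on 4803 and 4088 reads in control and on 101 and 108 reads with GNE-987. The level in treated cells was thus low and nearly equal in both libraries, and the groups were far apart. On the log2(FPKM + 0.1) scale LYL1 fell by 3.98 (standard error 0.0788), a ratio of means of 16.2 between control and treated cells. In control cells LYL1 stood at the 97.1th percentile of the tested genes by FPKM. Its fall was the 9th largest of 3548 protein-coding genes with a control mean of at least 10 FPKM.

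The genes whose pattern over the 4 libraries was most like that of LYL1 were sought among the other 3547 of these protein-coding genes, by the Euclidean distance between log2 values centred on the control mean. NFE2, an erythroid and megakaryocyte transcription factor on chromosome 12, was nearest, with a distance of 0.220 log2 units, and was at 58.6 and 52.9 FPKM in control and 3.25 and 2.98 FPKM with GNE-987. PTPN7, a tyrosine phosphatase of blood cells, followed at a distance of 0.327, then MYEOV at 0.434, SLC6A19, an amino acid transporter, at 0.444 and NRROS at 0.488. None of the 5 genes lies on chromosome 19. With 4 libraries in 2 groups the measure mostly reflects a like fold change.

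NACC1 and TRMT1 are the next genes beyond the start of LYL1. NACC1 encodes a nuclear BTB domain protein that takes part in transcriptional repression, and TRMT1 a tRNA methyltransferase. They are transcribed away from each other, with 1523 bases between the starts of their main transcripts, and further transcripts overlap so that the genes share 706 bases, 74 of them exonic in both. NACC1 (ENSG00000160877, 13116862 to 13141147, plus strand) had 44.5 and 43.5 FPKM in control and 8.31 and 8.10 FPKM with GNE-987. It fell by 2.41 on the log2 scale (standard error 0.0477). TRMT1 (ENSG00000104907, 13104902 to 13117567, minus strand) had 37.5 and 36.5 FPKM in control and 14.6 and 13.7 FPKM with GNE-987, resting on 2907 and 2716 reads and on 412 and 408 reads. It fell by 1.38 on the log2 scale (standard error 0.0560). Both genes fell, with levels that were close within each group.

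The pair moved by unequal amounts, which a ratio within a library shows without any scaling between libraries. Per length, NACC1 was 1.18 and 1.19 times as high as TRMT1 in control and 0.568 and 0.590 times as high after treatment. The ratio of TRMT1 to LYL1 was 0.561 and 0.616 in control and 3.78 and 3.50 with GNE-987, and that of NACC1 to LYL1 was 0.665 and 0.735 in control and 2.15 and 2.07 with GNE-987. LYL1 was the most highly expressed of these neighbours in control cells and the lowest in treated cells.

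STX10 and IER2 start 35 bases apart and are transcribed away from each other, and they did not move together. STX10 encodes a SNARE protein of the trans-Golgi network, and IER2 is an immediate early gene, switched on rapidly by growth factors and stress. The bases between the starts (chr19:13150376-13150410, plus strand, RefSeq, GRCh38.p14) are shown because both genes border on them. Capitals mark matches to CCGGAA, as TTCCGG on this strand, and to the E-box CANNTG.
STX10-IER2: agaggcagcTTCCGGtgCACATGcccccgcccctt
STX10 (ENSG00000104915, 13144058 to 13150383, minus strand) had 13.7 and 12.5 FPKM in control and 9.59 and 10.1 FPKM with GNE-987, on 568 and 498 reads and on 144 and 160 reads. The groups did not overlap, but the log2 fold change of -0.41 (standard error 0.0747) was short of the threshold. IER2 (ENSG00000160888, 13150411 to 13154911, plus strand) had 28.2 and 26 FPKM in control and 130.2 and 126.5 FPKM with GNE-987. It rose by 2.24 on the log2 scale (standard error 0.0581), or 4.74-fold by the means. The ratio of IER2 to STX10 was 2.05 and 2.07 in control and 13.6 and 12.5 after treatment, a ratio that no common factor per library can change. Quantile normalization, which reshapes each library, left the pair 1.63 and -0.46 (log2) from control. Both genes are on the study's list of genes with common super-enhancers, as is LYL1. The log2 threshold of -1 for the study's candidates lies between the changes of TRMT1 (-1.38) and of NFIX (-0.54) and STX10 (-0.41).

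NFIX (ENSG00000008441, 12995475 to 13098796, plus strand) ends 236 bases from the end of LYL1, on the other strand. It encodes a nuclear factor I transcription factor that acts in blood stem cells and muscle. Its level was low, at 2.78 and 3.04 FPKM in control and 2.43 and 1.60 FPKM with GNE-987, on 403 and 424 reads and on 128 and 89 reads. The log2 fold change was -0.54 (standard error 0.234), and without GNE-987 replicate 2, the lower treated library, it was -0.25. Relative to LYL1, NFIX was at 0.0415 and 0.0513 in control and at 0.627 and 0.408 with GNE-987.

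The members farther off lie on the lower-coordinate side of LYL1. CALR (ENSG00000179218, 12938578 to 12944489, plus strand), the endoplasmic reticulum chaperone calreticulin, starts 165 kb away and was the most highly expressed of the 9 genes, at 186 and 193 FPKM in control and 330 and 333 FPKM with GNE-987. DNASE2 (ENSG00000105612, 12875209 to 12881595, minus strand), the acid endonuclease of lysosomes, starts 222 kb away and was at 8.14 and 8.02 FPKM in control and 15.0 and 13.8 FPKM with GNE-987. Their log2 fold changes were alike, 0.81 (standard error 0.0389) for CALR and 0.82 (standard error 0.0686) for DNASE2, and neither passed the fold threshold. The ratio of CALR to DNASE2 was 22.9 and 24 in control and 22.1 and 24.2 with GNE-987, so the groups overlapped. A stretch of 184 exonic bases of DNASE2 is also annotated to the long noncoding RNA gene ENSG00000267735 on the other strand, which was at 1.62 and 2.38 FPKM in control and at 14.4 and 9.19 FPKM with GNE-987. Whether the counting used strand is not given in the sources used here, so reads of the shared bases could belong to either gene. The same holds for IER2, of whose 3079 exonic bases 662 are shared with ENSG00000287296 and 946 with ENSG00000267598, both on the other strand, the latter listed at 0 in all 4 libraries. NACC1 shares 458 and CALR 270 exonic bases with an opposite-strand gene that was listed at 0 in all 4 libraries (ENSG00000267512 and ENSG00000267458). LYL1, STX10 and GET3 overlap no other annotated gene.

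GET3 (ENSG00000198356, 12737139 to 12748323, plus strand) is the farthest member, 366 kb from LYL1, and encodes the ATPase that carries tail-anchored membrane proteins to the endoplasmic reticulum. It was at 35.9 and 29.5 FPKM in control and at 9.34 and 10.5 FPKM with GNE-987, on 1367 and 1079 reads and on 129 and 153 reads. GET3 fell by 1.71 on the log2 scale (standard error 0.127), the second largest standard error of the 9 genes after that of NFIX. The control libraries of GET3 were the farthest apart of the members that fell, relative to their mean.

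The direction of some members depends on the scaling. The number of reads by which the deposited FPKM were divided exceeded the reads on genes in control, at 1.19 and 1.16 times their number, and fell short of it with GNE-987, at 0.679 and 0.689 times. Relative to the deposited scaling, the median of all tested genes moved by -0.74 when libraries were scaled to their total of recovered reads, by -0.42 with quantile normalization and by -1.70 when scaled to GAPDH, the reference gene of the study's qRT-PCR, which was itself at 398 and 432 FPKM in control and 1501 and 1499 FPKM with GNE-987. LYL1, NACC1, GET3 and TRMT1 fell under each of these scalings, LYL1 by -4.74 (log2) with the total of reads, -4.42 with quantile normalization and -5.74 with GAPDH. IER2 was at 1.46, 1.63 and 0.39, the last short of the threshold. CALR was at 0.03, -0.74 and -1.05 and DNASE2 at 0.05, 0.78 and -1.01, so that the sign of these changes depended on the scaling. STX10 and NFIX passed as lower with the total of reads, at -1.18 and -1.28. With the median of all tested genes subtracted, LYL1 stood between -4.21 and -4.15 under the deposited, total-read, quantile and GAPDH scalings and IER2 between 1.87 and 2.07. CALR then still changed sign, from 0.63 with the deposited scaling to -0.50 with quantile normalization.

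**Figure D2:**
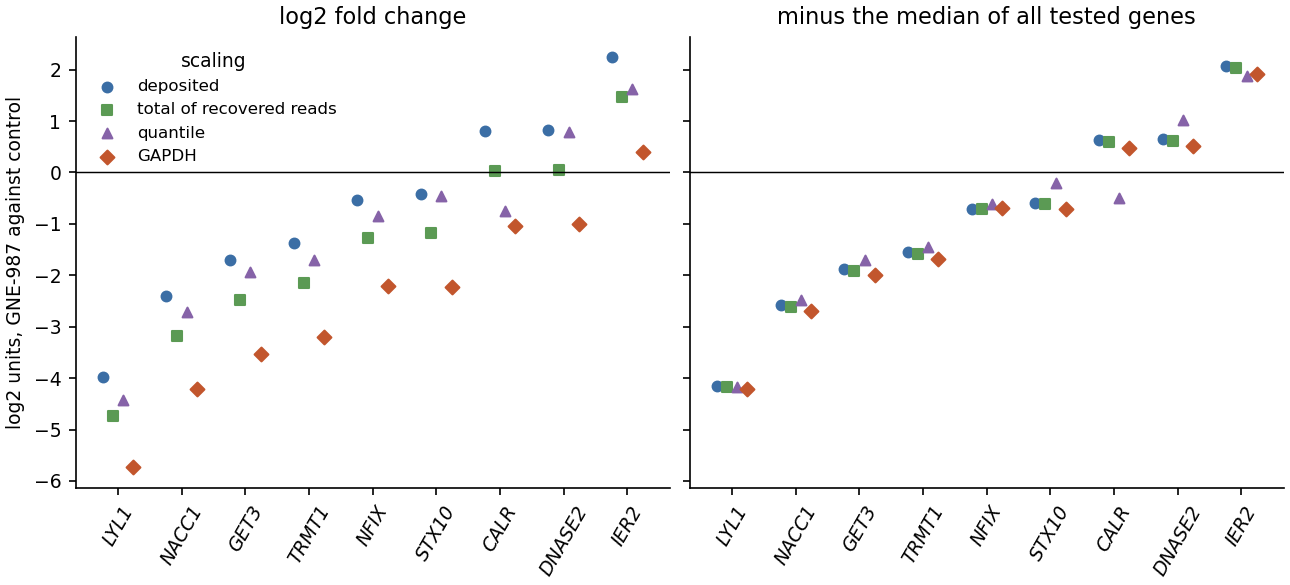
Log2 fold change of the 9 genes (GNE-987 against control) under 4 scalings of the libraries, as computed on the left and with the median of all tested genes subtracted on the right. On the left CALR and DNASE2 lie on both sides of 0, and on the right LYL1 lies between -4.21 and -4.15 while CALR still turns, from 0.63 with the deposited scaling to -0.50 with quantile normalization.

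Other genes of the same stretch were taken by position. Of the 46 genes in the table that start between 12.7 and 13.2 Mb, 37 are not among the 9 genes, and 20 of these were tested. They moved both ways, with 8 that rose, 3 that fell and 9 that did not pass. That is 40% that rose and 15% that fell, beside 33.6% and 24.9% of all tested genes. The median log2 fold change was 1.05 for these 20 genes and 0.17 for all tested genes. With scaling to the total of reads 3 rose and 6 fell (all tested genes 25.1% and 39.9%), with quantile normalization 5 and 5 (25.4% and 32.8%), and with GAPDH 1 and 8 (18% and 58.1%), so the counts moved with those of the whole table. Among the 13 protein-coding genes 5 rose and 2 fell. KLF1, an erythroid transcription factor, fell from 85.6 ± 0.457 to 26.1 ± 1.77 FPKM (SD, n = 2), with a log2 fold change of -1.71 and an adjusted P value of 0.000216 (limma, Benjamini-Hochberg). FARSA, a subunit of phenylalanyl-tRNA synthetase, fell by 1.33 on the log2 scale, from 115 and 110 FPKM to 46.7 and 42.4 FPKM. JUNB, an AP-1 subunit, rose by 2.17 on the log2 scale, from 22.7 and 19.3 FPKM to 93.2 and 96.1 FPKM, and PRDX2, a peroxiredoxin abundant in red cells, rose by 1.68 from 104 and 92.1 FPKM to 321 and 305 FPKM. JUNB did not pass with GAPDH as the reference, and PRDX2 did not pass with GAPDH, quantile normalization or the total of reads. TRIR, among the 3 highest of these genes in control, was at 110 and 102 FPKM in control and 64.6 and 67.9 FPKM with GNE-987.

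Within 50 kb of the LYL1 start, LYL1 included, 6 genes were tested. Of these 4 fell (LYL1, NACC1, TRMT1 and ENSG00000266897, a long noncoding RNA gene within NACC1), 1 rose (IER2) and STX10 did not pass. ENSG00000266897 was at 2.67 and 3.01 FPKM in control and 1.53 and 0.580 FPKM with GNE-987, with a log2 fold change of -1.48 and an adjusted P value of 0.0493 (limma, Benjamini-Hochberg). It did not pass without GNE-987 replicate 2 (-0.85), without control replicate 1 or 2 (unadjusted P values of 0.143 and 0.174 from limma), or with a pseudocount of 1 or 0.01. ENSG00000266897 lies on the same strand as NACC1 and shares no exonic bases with it. Over all tested genes 24.9% fell and 33.6% rose. All genes of the count but ENSG00000266897 belong to the part that was chosen on this contrast, so nothing is read from the count.

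**Figure D3:**
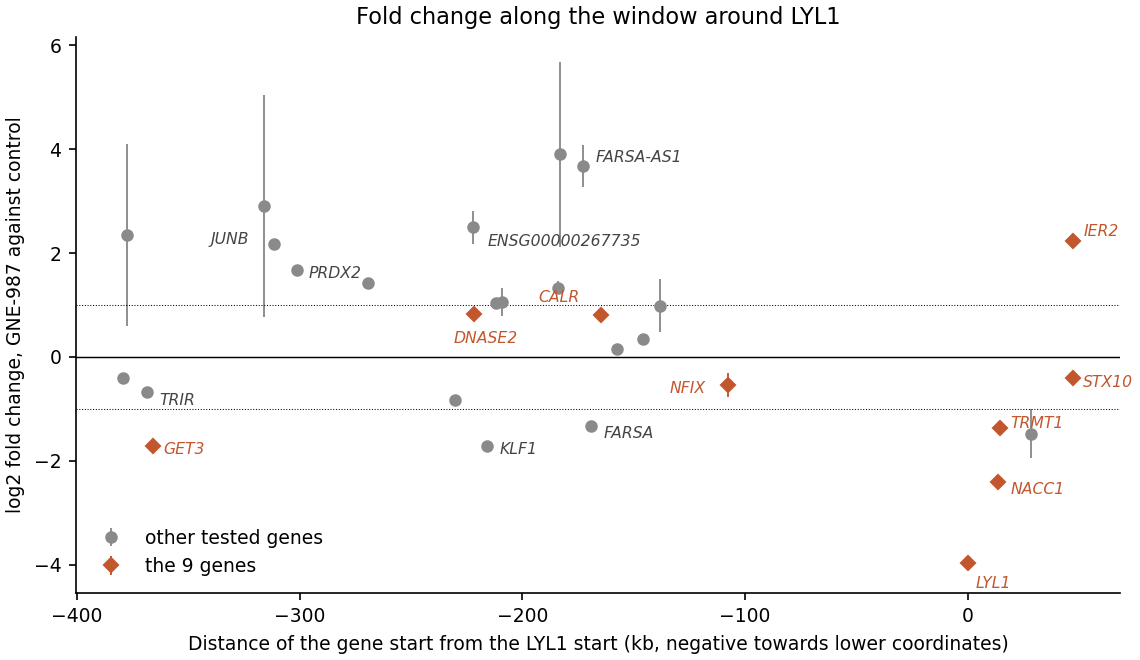
Log2 fold change (GNE-987 against control, bars are standard errors) of the 29 tested genes that start in the window, by the distance of their start from the LYL1 start in kb, with the 9 genes as red diamonds and dotted lines at a fold change of 2 and 0.5. LYL1 at 0 kb is the lowest point at -3.98, and IER2 and STX10, whose starts nearly coincide, stand at 2.24 and -0.41.

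Partners of LYL1 were looked at as a list of 25 genes, which holds members of its complex, its paralogs, blood factors that act beside it and the ID proteins, inhibitors of its E protein partners. All 25 are in the table and 18 were tested, of which 11 fell, 2 rose and 5 did not pass, with a median log2 fold change of -1.24 against 0.17 for all tested genes and -0.29 for the protein-coding ones. The share that fell was 61.1%, beside 24.9% of all tested genes and 31.7% of the 10996 protein-coding ones. The list was chosen with earlier results of these data known. This share and the P values below therefore describe the list and are no test of it. The largest falls were in CBFA2T3, a corepressor of the complex, from 28.4 and 26.6 FPKM to 2.36 and 2.16 FPKM, and in GATA1, the main erythroid transcription factor, from 124 and 122 FPKM to 15.1 and 12.5 FPKM. Their log2 fold changes were -3.55 (standard error 0.0803) and -3.15 (standard error 0.103). The bridging proteins LMO2 and LDB1 fell by 2.33 and 1.77 on the log2 scale, and the E protein TCF3 fell by 1.71. GATA2 fell from 73.6 and 71.2 FPKM to 28.0 and 28.5 FPKM. The 13 changes had adjusted P values of 0.00347 or less (limma, Benjamini-Hochberg).

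TAL1, the paralog of LYL1, was at 12.6 and 14.0 FPKM in control and at 8.14 and 7.65 FPKM with GNE-987, and its log2 fold change of -0.74 was short of the threshold. SSBP3, which binds LDB1, rose from 14.9 and 14.6 FPKM to 34.2 and 33.7 FPKM, and ID2, an inhibitor of E proteins, was at 2.74 and 2.77 FPKM in control and 6.08 and 6.06 FPKM with GNE-987. With scaling to the total of reads or to GAPDH neither passed as higher. ID1, another inhibitor of this family, fell by 1.33 on the log2 scale. ERG and FLI1, which act with LYL1 in stem cells, were listed at 0 in all 4 libraries.

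**Figure D4:**
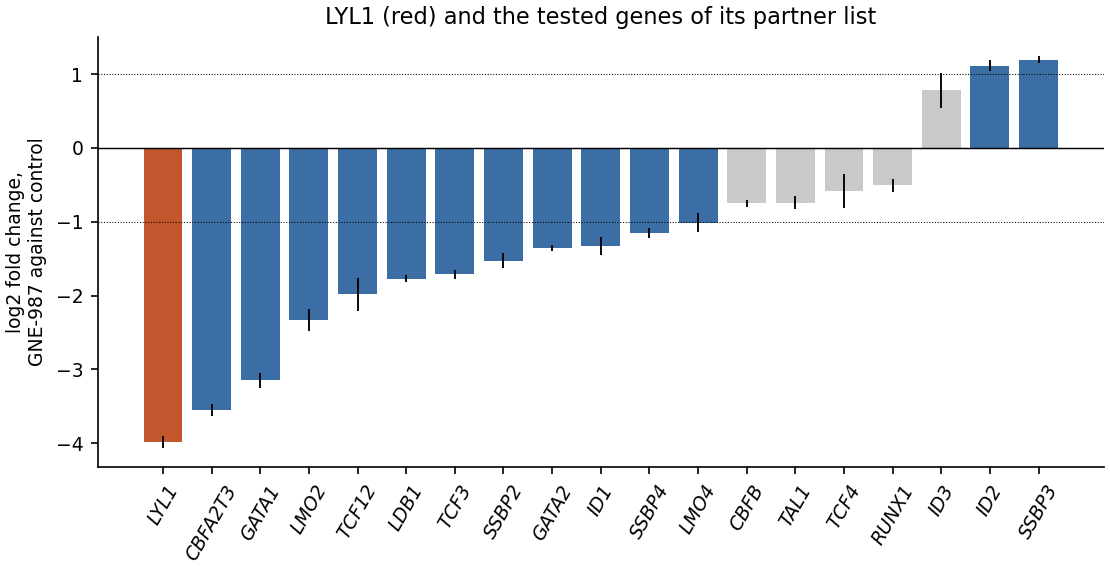
Log2 fold change (GNE-987 against control, bars are standard errors) of LYL1 (red) and the 18 tested genes of its partner list, blue where the thresholds were passed and grey where not, with dotted lines at a fold change of 2 and 0.5. The values run from -3.98 for LYL1 and -3.55 for CBFA2T3 to 1.20 for SSBP3.

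Relatives and partners of the other members were counted in the same way, beside the 31.7% of tested protein-coding genes that fell and the 24% that rose (24.9% and 33.6% of all tested genes). These lists too were chosen with earlier results of these data known, so their counts are a description. Of the nuclear factor I paralogs of NFIX, NFIC fell from 7.85 and 7.65 FPKM to 1.07 and 0.971 FPKM, NFIA fell too (not without control replicate 2, which left 1 of the list that fell), and NFIB was too low to be tested. NACC2, the paralog of NACC1, fell by 3.0 on the log2 scale, from 7.70 and 8.08 FPKM to 0.846 and 0.958 FPKM. Of 14 tRNA methyltransferase genes related in name to TRMT1, 11 fell and 0 rose, with a median log2 fold change of -1.63 (-0.29 for protein-coding genes). TRMT2A went from 42.8 and 41.0 FPKM to 7.24 and 7.46 FPKM, while TRMT112, an activator subunit of several methyltransferases, was at 50.9 and 48.1 FPKM and at 68.2 and 57.7 FPKM. The 3 relatives of IER2 (IER3, IER5 and IER5L) all rose, IER5 most, from 13.9 and 14.3 FPKM to 98.7 and 104 FPKM. With the total of reads only IER5 passed, with quantile normalization 2 of the 3 and with GAPDH 0.

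The partners of the remaining members moved both ways, and of those that rose only GET4 did so with the total of reads and 0 with GAPDH. Of 6 genes of the GET3 pathway, UBL4A fell by 3.08 on the log2 scale, from 50.04 and 52.1 FPKM to 6.23 and 5.69 FPKM, GET4 rose by 1.96, from 3.41 and 3.71 FPKM to 14.7 and 13.6 FPKM, and 4 did not pass. Without control replicate 2 or GNE-987 replicate 2, GET1 passed as well, so that 2 fell. UBL4A and GET4 form, with BAG6, the complex that hands tail-anchored proteins to GET3. Of 6 tested genes that work with calreticulin in glycoprotein folding, PRKCSH rose, at a log2 fold change of 1.10, and 5 did not pass. CANX, the membrane-bound relative of calreticulin, was at 109 and 114 FPKM in control and at 206 and 200 FPKM with GNE-987, a log2 fold change of 0.86 next to 0.81 for CALR. Of 6 SNARE genes of the STX10 route, STX16, VTI1A and VAMP4 fell, VAMP3 rose from 12.7 and 13 FPKM to 36.7 and 40.1 FPKM, and STX6 and VTI1B did not pass. Of 5 tested nuclease genes listed with DNASE2, DNASE1L2 and PLD3 rose, the latter from 29.6 and 27.4 FPKM to 80.6 and 80.1 FPKM, and 3 did not pass.

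The promoters of the 9 genes, 250 bases before to 50 bases after the start, were compared by sequence. Their GC content ran from 47.0% for GET3 to 74.7% for LYL1, with a median of 58.7% over all 35116 promoters in the table. GATAA was found in the promoter of LYL1 and in no other of the 9, and in 22.7% of all promoters. CCGGAA was found in TRMT1, STX10 and IER2 and in 17.2% of all promoters, and the E-box CANNTG in 7 of the 9 and in 68.7% of all. CCAAT was found in TRMT1 and CALR and in 34.6% of all, and TATAAA in CALR and GET3 and in 11.5% of all. No CArG box, the site of serum response factor, was found in the 9 promoters, against 1.29% of all. Both strands were searched, and the promoters of STX10 and IER2 overlap.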

How the data were processed

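RNA was extracted with Trizol and libraries were made with the TruSeq kit. According to the submitters' processing notes, reads were mapped with HISAT2 2.0.5 to hg38. The authors deposited FPKM values for each gene and library, and the counting program, its annotation and its strand setting are not given in the sources used here. Names and positions came from GENCODE release 44 (GRCh38), which held 58207 of 58735 identifiers (99.1%). Groups and replicate numbers came from the labels, and dose and time from the study's text.

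Values were tested as log2(FPKM + 0.1) with limma 3.58.1 in R 4.3.3 (empirical Bayes with an intensity trend), keeping the 16668 genes whose mean reached 0.5 FPKM. Adding 0.1 understates the change of low genes. Benjamini-Hochberg adjustment ran across every tested gene. Reads were recovered from the FPKM steps (within 0.01 of a whole number). At GENCODE exon lengths 53.0% of the genes above 0 came out whole, among them LYL1, TRMT1 and STX10. All but 7 of the others came out whole at another length. For DNASE2 that length is ambiguous and no reads are given. For GET3 it was 1652 bases, more than its 1451 annotated exonic bases, and the reads given for GET3 depend on it. Intervals of reads would cover counting error only. In a simulated comparison of these groups over 16668 genes, 190 of 200 changed genes were found, and 1.34% of the unchanged genes were called. All planted changes were well beyond the fold threshold, and the noise was drawn independently for each library. The simulation therefore does not cover changes near the threshold or shifts in scaling, and 1.34% is not an error rate of the data.

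The 9 genes and the lists were chosen with earlier results of these data known. Named were all 9 genes, the 3 highest and the 3 largest changes each way among called genes of the window with a mean of at least 5 FPKM (only 2 fell), and list genes of at least 5 FPKM. NFIA, NFIB, NFIC, GET1, EPOR, NACC2, STX16, VTI1A, VAMP4, STX6, IER5L, CTSG, ELANE, ERG, FLI1, ID2 and ENSG00000266897 were named after their values were seen. Lists are in the order of the text: markers of 4 cell types, LYL1 partners, and relatives of the other members. Alternatives were other scalings, pseudocounts, filters, the adjusted P value, limma-voom on recovered reads, the replicate number as a block, each library left out, and a window of 500 kb around LYL1. The same settings were applied to the lists of relatives and to ENSG00000266897 after the data were seen.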

Additional observations from a re-analysis of the deposited data

How the results depend on the processing

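Scaling between libraries moved the results most. Of the 9 genes, 4 fell with the deposited values, 6 with the total of reads and with limma-voom, and 8 with scaling to GAPDH, while over all tested genes the share that fell went from 24.9% to 39.9%, 40.6% and 58.1%. The log2 fold change of CALR turned to -1.05 with GAPDH and -0.74 with quantile normalization, and that of DNASE2 to -1.01 with GAPDH. Of the window genes outside the 9, 3 fell with the deposited values, 8 with GAPDH, 5 with quantile normalization and 6 with the total of reads and with limma-voom. In the same order 8, 1, 5 and 3 rose. In the window of 500 kb on each side of LYL1, 14 rose and 3 fell with the deposited values. That window takes in more genes and its number of tested genes is not given here, so these counts cannot be set beside the others. Of the LYL1 partners, 2 rose with the deposited values, 0 with GAPDH, the total of reads and limma-voom, and 1 with quantile normalization and a pseudocount of 1. With each library left out in turn, 4 of the 9 genes fell each time, 2 to 3 window genes fell and 7 to 9 rose, and 10 to 11 partners fell and 2 to 3 rose. The group with 1 library left was then assumed to vary like the other. In log2 terms LYL1 ranged from -4.07 to -3.89 and NFIX from -0.82 to -0.25. Deviations of equally numbered libraries were uncorrelated (0.00537 over 16668 genes), so no pairing by number was seen in the values. The labels do not say whether equally numbered libraries were cultured or handled together. In a fit with the replicate block, 4 of the 9 genes fell, and 3 window genes fell and 8 rose. Depth was lower in the GNE-987 libraries, where the values of NFIX and LYL1 rest on the fewest reads.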

Other observations

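In the same window, FARSA and the noncoding gene FARSA-AS1 on its other strand moved in opposite directions with the deposited scaling. FARSA-AS1 lies within the bounds of FARSA. The strand setting of the counting is not given, so reads of any shared exonic bases could belong to either gene. FARSA-AS1 was at 2.34 and 1.13 FPKM in control and at 18.9 and 25.9 FPKM with GNE-987, up by 3.68 on the log2 scale (standard error 0.401, limma adjusted P value 0.00219), while FARSA had a log2 fold change of -1.33. The 9 genes summed to 424 and 411 FPKM in the control libraries and to 524 and 522 FPKM with GNE-987. LYL1 made up 15.8% and 14.4% of that sum in control and 0.740% and 0.752% with GNE-987, and IER2 made up 6.65% and 6.32% and then 24.9% and 24.3%.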
